A study of Mus musculus with 8 samples.

Results

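The change of mouse calvarial osteoblastic cells with osteogenic culture was described for wild-type (WT) cells, by comparing the WT libraries of day 12 with those of day 0. Members were the genes with a mean CPM (read count scaled to a fixed library total) of at least 1 on either day in WT cells, which 12086 of the 24421 genes in the files met: 10933 on both days, 277 at day 0 only and 876 at day 12 only. The cells came from calvarial bone of newborn (0 to 3 days old) C57BL/6 mice, were released with collagenase and dispase, and were grown in medium with serum. Poly-A RNA was sequenced before and after 12 days with ascorbic acid and β-glycerophosphate, in 2 WT libraries a day. The study made the same 4 libraries from Def6-/- mice, in which the gene of the adaptor protein Def6 is deleted, and these 8 libraries were fitted together. The sequenced cultures had not been depleted of blood-lineage (CD45+) cells. The study calls the 2 libraries of a group biological replicates, but whether a library pooled animals, or whether the replicates were separate isolations, is not given in the sources used here, so p-values measure the spread between these libraries.

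Osteoblasts lay down a matrix of type I collagen and non-collagen proteins and then mineralize it with hydroxyapatite. Runx2 and Sp7 commit cells to this lineage, tissue-nonspecific alkaline phosphatase (Alpl) removes a mineralization inhibitor, and Ibsp, Dmp1 and Bglap mark late osteoblasts and early osteocytes. Ascorbic acid is needed to hydroxylate collagen, and β-glycerophosphate gives the phosphate for mineral.

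Values are normalized CPM, made from the deposited CPM by scaling to gene reads and TMM factors. Changes were tested with limma on log2(normalized CPM + 1), a scale on which changes of low genes come out too small, and a gene was called at a Benjamini-Hochberg adjusted p under 0.05. At day 12, 1549 genes were higher (12.8% of members) and 691 were lower (5.72%), and in all 2240 called genes both libraries of one day lay beyond both of the other. Over all members, 29.2% had both day 12 libraries above and 26.9% had both below. Changes of at least 2-fold were found for 1341 of the higher and 437 of the lower genes, and changes of at least 8-fold for 226 and 24. The median log2 change of all members was -0.01. Of the higher genes, 523 had passed the filter only at day 12, and 76 of the lower genes only at day 0, so that these had to differ for their values to be seen.

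The 4 WT libraries held between 2526057 and 3482837 reads on genes, 28.8% to 35.2% of their reads. WT day 0 replicate 1 stood apart: 19.3% of members differed 2-fold or more between the day 0 replicates, against 1.81% between the day 12 replicates, and in this library 34.9% of reads had no unique alignment, against 21.6% to 26.6% in the other WT libraries. The chi-square per gene between replicates was 34.3 at day 0 and 12.6 at day 12, so both were kept as separate samples. Y-linked genes summed to 56.4 and 47.9 normalized CPM in replicate 1 of the 2 days and to 0 and 0.419 in replicate 2. Xist, made by female cells, was at 136 and 276 in replicate 1 and at 644 and 443 in replicate 2. Replicate 1 thus held both Y-linked and Xist RNA, and the labels give no sex. Def6 itself was at 58.0 and 39.6 normalized CPM at day 0 and at 53.4 and 57.4 at day 12, and it was not called (log2 change 0.20, standard error 0.31). By qPCR and immunoblot the paper reports that Def6 is induced during differentiation. Without a day 12 library the calls dropped to 703 higher and 181 lower genes (without replicate 1) or 824 and 161 (without replicate 2). Without day 0 replicate 2 they were 3002 and 2652, and without day 0 replicate 1 they were 1899 and 1189.

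A protein of the bone matrix had the largest rise of all. Ibsp (bone sialoprotein, chr5:104299171-104311469, plus strand, GENCODE M21 on GRCm38) was at 10.3 and 0.707 normalized CPM in the day 0 libraries and at 1260 and 650 in the day 12 libraries. The days were far apart although the replicates of each day differed, and the log2 change of 7.69 (standard error 0.73, adjusted p = 0.00027, limma) was the largest rise among called genes at 10 normalized CPM or more. Its neighbor Dmp1 (dentin matrix protein 1, a regulator of mineral in osteocytes, chr5:104202613-104214102) went from 3.16 and 0 to 251 and 57.0, a log2 change of 5.89 (standard error 0.81, adjusted p = 0.00159), with day 12 replicate 1 well above replicate 2. Bglap (osteocalcin, chr3:88383501-88384464, minus strand) had 0 reads in both day 0 libraries and was at 6.31 and 7.54 normalized CPM at day 12. Against a floor of 3 reads per library it was at least 6.17-fold higher at day 12 (adjusted p = 0.000687, limma). Bglap2 is a near-identical copy, and reads without a unique alignment were counted apart from genes. Reads that fit both copies may thus be missing from these values. Ifitm5, which osteoblasts make during mineralization, also had 0 reads at day 0 and was at least 10-fold higher at day 12.

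Of the 24 non-collagen bone matrix genes, 21 were tested; 10 were higher and 1, the elastic fiber gene Fbln2, was lower. Their median log2 change was 0.84, against -0.01 for all members, and of the 16 that passed the filter on both days 6 were higher. The 3 most abundant members did not pass the test. Sparc (osteonectin) was at 7500 and 8450 normalized CPM at day 0 and at 13700 and 14700 at day 12 (adjusted p = 0.0511), and Thbs1 had a log2 change of -0.45 (adjusted p = 0.303). Fibronectin, Fn1, was at 7030 and 19000 at day 0, so that the spread between the day 0 libraries was larger than their distance to day 12 (7520 and 7370). Leaving out 1 WT library gave between 7 and 12 higher genes in this list, and without either day 0 library 3 were lower.

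**Figure D1:**
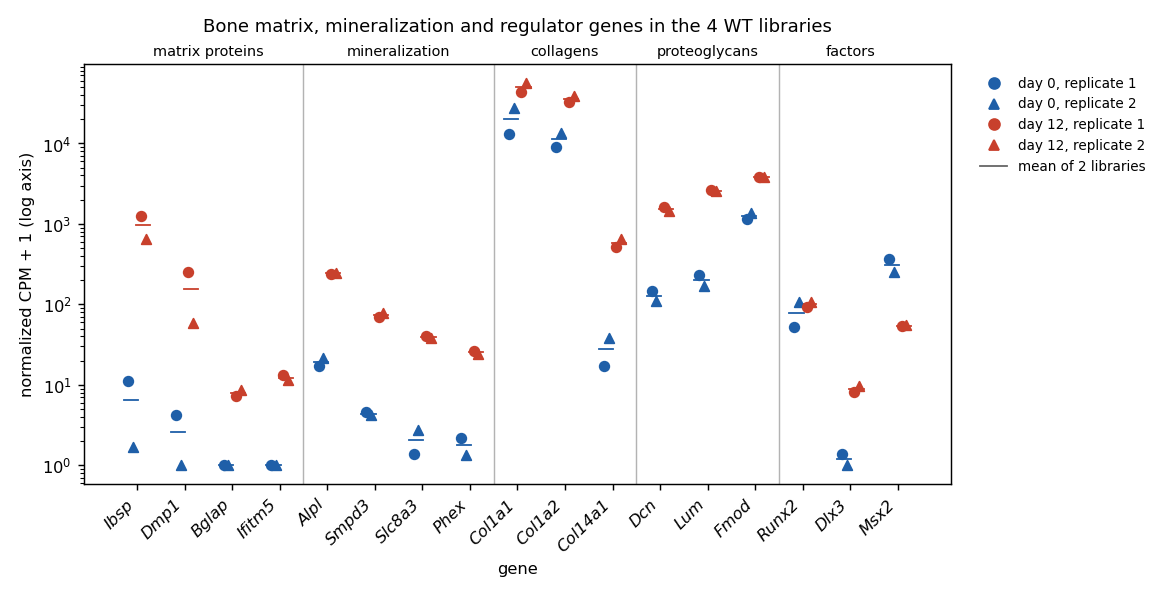
Normalized CPM + 1 on a log axis for genes of the bone matrix, mineralization, collagens, proteoglycans and transcription factors; each point is 1 of the 4 WT libraries and each line the mean of 2 libraries of a day. Ibsp rose from 10.3 and 0.707 to 1260 and 650, while Runx2 overlapped between the days and Msx2 was lower at day 12.

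The window before the Bglap start is shown because Bglap is the classical target of Runx2, which binds the letters TGTGGT. In the 250 bases before the RefSeq start (GRCm38.p6, chr3:88384467-88384716, minus strand) 1 match on either strand was found, 132 bases before the start, and it is in capitals:

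Bglap: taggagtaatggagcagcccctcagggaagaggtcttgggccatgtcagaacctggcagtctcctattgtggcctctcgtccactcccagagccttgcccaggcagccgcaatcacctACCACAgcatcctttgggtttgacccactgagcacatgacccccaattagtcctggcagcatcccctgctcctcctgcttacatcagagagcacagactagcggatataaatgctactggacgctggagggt

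Promoters (250 bases before to 50 after the start) were matched for 9687 of the 12086 members. TGTGGT was in 18.9% of the promoters of all genes and in 14.5% of those of members. The share was 15.8% for genes called higher and 13.1% for genes called lower. Of the 8 higher matrix genes with a promoter, 3 had it. A match of 6 letters is frequent, and it describes the sequence only.

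Small leucine-rich proteoglycans, which bind collagen fibrils and set their thickness, were among the most uniform groups. All 13 that were tested, of 16 in the list, passed the filter on both days; 10 were higher, none was lower, and the median log2 change was 2.05. Decorin (Dcn) was at 144 and 109 normalized CPM at day 0 and at 1610 and 1430 at day 12, a log2 change of 3.59 (standard error 0.19, adjusted p = 3.37e-05). Lumican (Lum) went from 230 and 166 to 2610 and 2530, a log2 change of 3.71. Epiphycan (Epyc) had the smallest start, 9.87 and 4.59, and reached 209 and 205. In these 3 genes the day 12 replicates were close together and far above each day 0 library. Biglycan (Bgn), abundant on both days, was at 3080 and 3620 and then at 3000 and 3140, and was not called. Between 8 and 10 genes of the list were higher when 1 WT library was left out.

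Of the 26 collagen chains, all tested, 13 were higher and none was lower (median log2 change 1.16). Col1a2, a chain of type I collagen, was at 8910 and 13500 normalized CPM at day 0 and at 32600 and 38800 at day 12, a log2 change of 1.70 (standard error 0.33, adjusted p = 0.00789). Its partner chain Col1a1 was at 13200 and 27300 and then at 44100 and 55700; the days did not overlap, but the spread at day 0 was wide and the adjusted p was 0.0505. Col3a1, the fibril chain of soft tissue, rose to 8150 and 9630 from 2590 and 2880. The called chains of smallest p were Col14a1 (log2 change 4.49), Col24a1 (3.91), which passed the filter only at day 12, and Col27a1 (2.49). Without either day 12 library 8 chains were higher, without day 0 replicate 2 there were 19, and without day 0 replicate 1 there were 13 higher and 4 lower.

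The enzymes that fold, cut and crosslink collagen did not follow as a group: 8 of 25 were higher and 4 lower, with a median log2 change of 0.14. The procollagen proteinase Adamts2 rose from 84.5 and 129 normalized CPM to 493 and 470 (log2 change 2.19, adjusted p = 0.000431), and Pcolce, which enhances that cleavage, rose from 535 and 491 to 1490 and 1580. Lysyl oxidase (Lox), the crosslinking enzyme, fell from 3120 and 4180 to 2180 and 2030 (log2 change -0.78, adjusted p = 0.0396), and Loxl2 and the lysyl hydroxylase Plod3 fell by 0.73 and 0.77 on the log2 scale. The collagen chaperone Serpinh1, at 3310 and 3060 and then 2800 and 3070, overlapped between the days. Leaving out day 12 replicate 2 left 3 higher and 0 lower genes, and leaving out day 0 replicate 2 turned the median to -0.12 and gave 9 lower genes.

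Among the 12 genes of mineralization and phosphate transport, 5 were higher and 1 was lower. Alpl (chr4:137741733-137796384, minus strand) was at 16.2 and 20.8 normalized CPM at day 0 and at 239 and 246 at day 12, a 13.1-fold rise of means (log2 change 3.65, standard error 0.22, adjusted p = 4.04e-05). Smpd3, the sphingomyelinase that bone needs to mineralize, went from 3.55 and 3.18 to 68.6 and 76.2, and the sodium-calcium exchanger Slc8a3 from 0.395 and 1.77 to 39.9 and 37.7. These 3 genes had tight day 12 replicates and, like all called genes, no overlap. The endopeptidase Phex, which limits phosphate loss and mineralization inhibitors and is made by osteocytes, rose by 3.88 on the log2 scale. The phosphate importer Slc20a1 went the other way, from 296 and 157 to 58.0 and 47.3 (log2 change -2.02, adjusted p = 0.00779), and the pyrophosphate exporter Ank was not called (0.59). Without day 0 replicate 1 the list had 8 higher genes, and without any of the other WT libraries 5 or 6, with none lower without either day 12 library.

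Of 20 transcription factors of the lineage, 19 were tested. Of these, 3 were higher, a share near the 12.8% of all members, and 3 were lower, against 5.72% of all members. The median log2 change was 0.26. Runx2 (chr17:44495987-44814797, minus strand) was at 50.9 and 105 normalized CPM at day 0 and at 92.7 and 107 at day 12, which overlap (log2 change 0.44, standard error 0.31, adjusted p = 0.363), and without day 0 replicate 1 its change was -0.08. The homeobox factor Dlx3, with 1 and 0 reads at day 0, was at 7.18 and 8.79 normalized CPM at day 12 (adjusted p = 0.000887). Tcf7, a partner of β-catenin, rose by 1.26 and Ebf3 by 1.35 on the log2 scale. Msx2, a homeobox factor of skull growth, fell from 367 and 253 to 52.5 and 54.4 (log2 change -2.49, standard error 0.22, adjusted p = 0.00019), and Prrx2 and Atf4 fell by 0.95 and 1.19. Without either day 12 library 1 factor was higher, and without day 0 replicate 2 there were 10.

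The Wnt pathway drives bone formation, and secreted inhibitors of it are made by the bone lineage itself. Of 37 tested genes of 41 in the list, 19 were higher and 4 were lower, and 13 of the 28 that passed on both days were higher. The secreted Wnt binders gave the highest values: Sfrp2 was at 83.3 and 138 normalized CPM at day 0 and at 3280 and 3030 at day 12 (log2 change 4.86, standard error 0.30, adjusted p = 4.75e-05), and Sfrp1 rose from 11.8 and 22.3 to 415 and 565. The agonist Rspo2, which keeps Wnt receptors at the surface, rose from 4.74 and 13.1 to 156 and 142. Ligand genes went both ways: Wnt9a and Wnt2 fell (log2 change -1.96 and -2.34), and Wnt5b and Wnt16, named after their values were seen, rose (1.19 and 3.11). Notum, an enzyme that inactivates Wnt proteins, fell (-1.58). Ccnd1, a cyclin that Wnt can induce, was not called (0.63, adjusted p = 0.0847). Leaving out a day 12 library left 10 higher genes, and leaving out day 0 replicate 2 gave 24.

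In the BMP pathway 7 of 27 tested genes were higher and 5 lower, against 12.8% and 5.72% of all members. The median log2 change was -0.16. The ligand genes Bmp2 (from 1.97 and 2.47 to 31.3 and 16.3 normalized CPM) and Gdf10 (from 24.9 and 35.0 to 370 and 424) rose, and so did the BMP-binding antagonist Chrdl1, from 7.89 and 16.6 to 403 and 419 (log2 change 5.04, adjusted p = 5.77e-05). The inhibitory mediators Smad6 and Smad7 fell by 1.15 and 1.68 on the log2 scale. Without day 12 replicate 2, 5 genes were higher and 2 lower, and without day 0 replicate 2 these were 9 and 8.

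TGF-beta genes were more often lower: 9 of 18 fell and 2 rose, the median was -0.83, and all 18 passed the filter on both days. Of the 3 ligand genes, Tgfb3 fell from 715 and 458 to 168 and 163 (log2 change -1.78, standard error 0.22, adjusted p = 0.000975), while Tgfb1 rose from 60.4 and 35.3 to 125 and 98.8 (1.25) and Tgfb2 rose from 30.0 and 45.6 to 73.8 and 77.5 (1.01). Ltbp1, which tethers the latent ligand to matrix, fell by 1.55, and the receptor Tgfbr2 was not called. The lower count was 5 without day 12 replicate 1 and 6 without replicate 2, and then no gene was higher. Leaving out day 0 replicate 2 gave 10 lower and 5 higher genes.

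Contractile and CCN genes mark spread cells under tension. Of 20, all on both days, 9 were lower, 1 was higher and 10 were not called (median log2 change -0.82). Smooth muscle actin (Acta2) was at 8320 and 4280 normalized CPM at day 0 and at 1700 and 1620 at day 12 (log2 change -1.84, standard error 0.30, adjusted p = 0.00358). Tagln fell from 8850 and 2500 to 834 and 765, and Cyr61, a matricellular protein, from 2170 and 1000 to 336 and 405. In each of these, as in all called genes, the days did not overlap, and day 0 replicate 1 was well above replicate 2. The exception was Nov, another CCN protein, which rose from 179 and 216 to 1250 and 918 (log2 change 2.44). The letters GGAATG that TEAD factors bind were in the promoters of 4 of the 6 lower genes that had one. They were in 14.2% of the promoters of members and in 16.6% of all promoters. For genes called higher the share was 18.6%, and for genes called lower 14.0%. With either day 12 library left out, 2 genes were lower, and with day 0 replicate 2 left out, 14.

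The 12 deepest falls held Slc7a3, an importer of basic amino acids (chrX:101079210-101086020, minus strand). It was at 45.8 and 30.0 normalized CPM at day 0 and had 0 reads in both day 12 libraries, so that it was at least 35.8-fold lower at day 12 against the floor of 3 reads. The large neutral amino acid transporter chain Slc7a5 fell from 418 and 644 to 43.1 and 41.5 (log2 change -3.59, adjusted p = 0.0031), and Cth, which makes cysteine, fell from 33.5 and 21.9 to 1.15 and 2.09. None of these overlapped between days, as the rule for naming them required. Among the others of the 12, the neuroendocrine gene Ptprn, the guidance cue Sema3e, the actin-binding Avil, Coch and the connexin Gjb2 fell by 4.15, 4.04, 3.66, 3.62 and 3.53 on the log2 scale. Trib3 and Chac1, stress-induced genes, fell from 145 and 123 to 9.18 and 10.5 and from 69.9 and 68.9 to 7.46 and 4.61. Asparagine synthetase (Asns) fell from 416 and 311 to 33.9 and 38.5. Atf4, the factor that induces these stress genes, fell from 494 and 325 to 174 and 176 (log2 change -1.19, adjusted p = 0.0288).

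In the list of endoplasmic reticulum (ER) chaperones and stress genes, 11 of 24 were lower and none was higher, with a median log2 change of -0.66, and all 24 had passed on both days. The chaperone Hspa5 fell from 2440 and 1620 to 811 and 877 (log2 change -1.24, adjusted p = 0.00578) and the ER chaperone Hyou1 from 391 and 361 to 133 and 152 (-1.40). Calreticulin (Calr), at 1760 and 1310 and then 1150 and 1090, was not called. Between 4 genes (without either day 12 library) and 19 (without day 0 replicate 2) were lower.

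**Figure D2:**
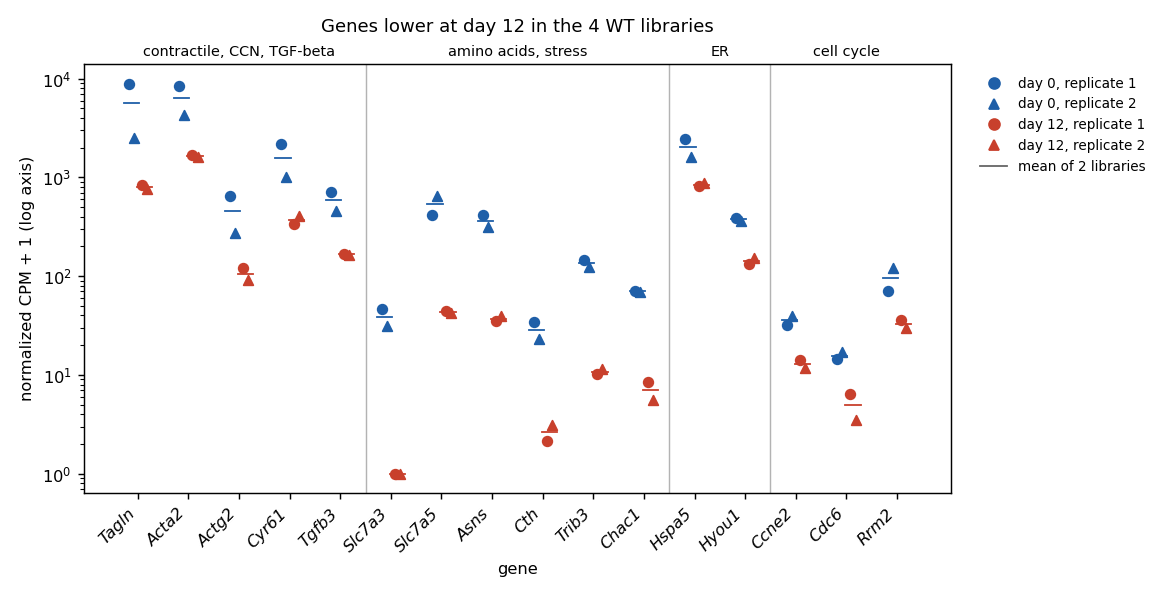
Normalized CPM + 1 on a log axis for called genes that were lower at day 12, by group; each point is 1 of the 4 WT libraries and each line the mean of a day. Day 0 replicate 1 lies above replicate 2 for Tagln and Acta2, whereas the day 0 replicates are close for Chac1 (69.9 and 68.9).

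The promoter of Chac1 is shown because Atf4 and its partners bind the letters TGATGNAA of the amino acid response element. In the 250 bases before its RefSeq start (GRCm38.p6, chr2:119350992-119351241, plus strand) 1 match, on the other strand, began 193 bases before the start:

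Chac1: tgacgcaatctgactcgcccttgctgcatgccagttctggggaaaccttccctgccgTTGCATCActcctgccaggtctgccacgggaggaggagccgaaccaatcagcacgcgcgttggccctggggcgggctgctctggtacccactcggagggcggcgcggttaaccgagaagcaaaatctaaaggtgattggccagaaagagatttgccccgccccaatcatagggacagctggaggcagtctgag

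The letters TGATGNAA were in 4.51% of all promoters and in 2.68% of those of members. Genes called lower had them in 6.09% of promoters, and genes called higher in 4.02%. Of the 9 lower genes of the ER and stress list with a promoter, 3 had them, namely Trib3, Chac1 and Asns.

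Early response factors of the AP-1 family and their kin were lower or not called: 4 of 17 fell and none rose. Among all members 5.72% were called lower and 12.8% higher. Fosl1 fell from 44.6 and 22.6 normalized CPM to 5.17 and 5.44 (log2 change -2.38, adjusted p = 0.00448), and the stress gene Ier3 from 85.2 and 43.5 to 14.1 and 11.3. Jun was at 228 and 120 and then at 114 and 126, and was not called. The median of -0.90 was -0.20 without day 0 replicate 1, where 3 genes were lower and 1 higher, and -1.33 without day 0 replicate 2, where 12 were lower. Without either day 12 library 2 were lower. Ptgs2, the inducible cyclooxygenase, was also highest in day 0 replicate 1 (353, against 73.1 in replicate 2, and 16.4 and 7.96 at day 12).

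Cell cycle and DNA replication genes gave 8 lower and no higher among 46, with a median log2 change of -0.22. The called genes belong to the start of S phase: Ccne2 (cyclin E2) fell from 31.2 and 38.9 normalized CPM to 13.2 and 10.9 (log2 change -1.46, adjusted p = 0.00793), Cdc6, which loads the replication helicase, from 13.4 and 15.9 to 5.45 and 2.51, and Rrm2, a subunit of ribonucleotide reductase, from 69.9 and 120 to 35.0 and 28.9. The mitotic genes Top2a and Mki67 could not be judged, since Top2a was at 45.8 and 198 and Mki67 at 24.9 and 142 in the day 0 replicates, with day 12 values in between (75.2 and 95.1 for Top2a, 62.6 and 59.5 for Mki67). Without day 0 replicate 1, 17 genes of the list were lower and the median was -0.81; without day 0 replicate 2, 15 were higher, 8 were lower and the median was 0.11. Without day 12 replicate 1, 3 were lower, and without day 12 replicate 2, none. Among 12 cyclin-dependent kinase inhibitors and growth arrest genes 5 were higher and 1 lower. Cdkn1c (p57), an inhibitor tied to cell cycle exit, rose from 33.5 and 32.2 to 279 and 271 (log2 change 3.03, standard error 0.24, adjusted p = 0.000113), and the growth arrest genes Gas1 and Gas6 rose by 2.60 and 2.65. Cdkn1a (p21) fell from 1040 and 833 to 529 and 541 (-0.80). Without either day 12 library 3 of the 12 were higher and none was lower.

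Factors by which the bone lineage supports or restrains osteoclasts were split. Of 6 tested, Csf1, Lif and Tnfrsf11b fell (log2 change -0.73, -1.25 and -1.16). Tnfrsf11b encodes osteoprotegerin, which inhibits osteoclasts, so its fall is not a fall of support. Il34, a second ligand of the Csf1 receptor, rose from 6.71 and 10.6 normalized CPM to 41.0 and 53.2 (2.34, adjusted p = 0.00129, limma). The collagenase Mmp13, a late osteoblast product, rose from 96.7 and 135 to 604 and 486 (log2 change 2.23, adjusted p = 0.00104). In all, 6 of 22 tested matrix metalloproteinases and inhibitors were higher and 1, Timp3, was lower. For all members these shares were 12.8% and 5.72%, and the lower count is near the latter. Without either day 12 library none of the 6 factors was lower and 3 of the 22 proteinases and inhibitors were higher. With day 0 replicate 2 left out, 5 factors were lower and 10 of the 22 were higher. Osteocyte genes gave 4 higher (Dmp1, Phex, Cadm1 and Pdpn) and 1 lower, again Tnfrsf11b, among 10 tested, with 2 higher without day 12 replicate 1.

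**Figure D3:**
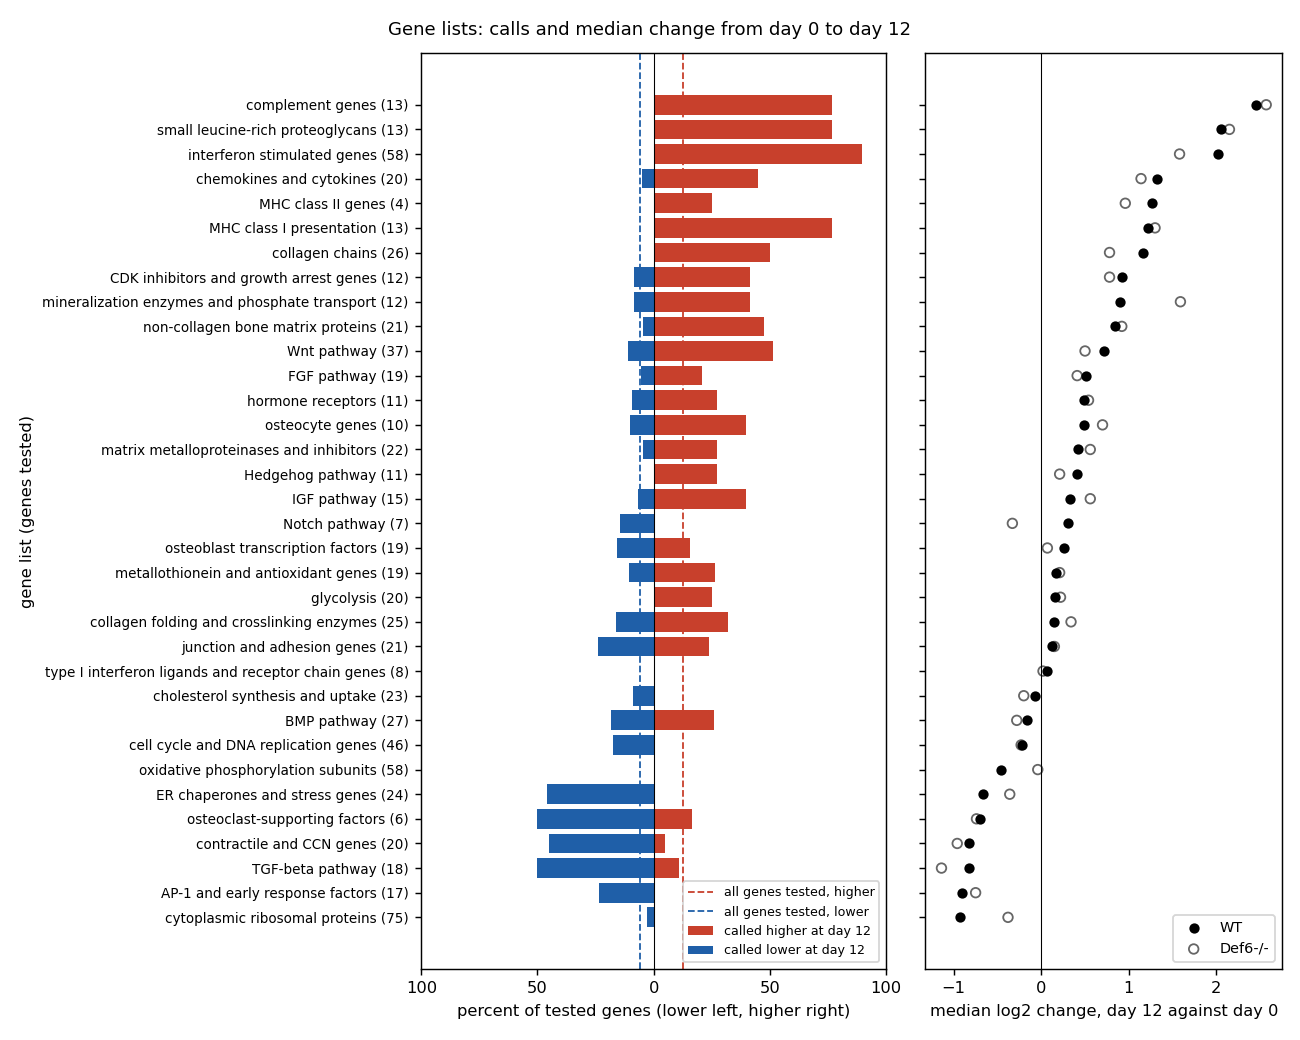
Left, percent of the tested genes of each list called higher (right of 0) or lower (left of 0) at day 12 in WT cells, with dashed lines at the percent of all members; right, median log2 change in WT (filled) and Def6-/- (open) libraries. Marker lists are not drawn; among the lists drawn, complement genes, proteoglycans and interferon stimulated genes have the highest WT medians, and ribosomal proteins and AP-1 factors the lowest.

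Outside the bone program, the largest rises were led by Marco, a scavenger receptor of macrophages, which was at 10.3 and 1.06 normalized CPM at day 0 and at 500 and 275 at day 12 (log2 change 6.27, standard error 0.67, adjusted p = 0.000463). Steap4, a metal reductase, rose from 0.395 and 1.06 to 106 and 135, Penk (the enkephalin precursor, chr4:4133531-4138819, minus strand) from 14.6 and 7.77 to 699 and 767, and Egfl6, a secreted matrix protein, from 12.2 and 13.4 to 592 and 511. Egfl6 had the smallest standard error of these, 0.18, for a log2 change of 5.32. Lyz1 and Fcgr2b, the latter an inhibitory antibody receptor, rose by 5.40 and 5.23, and Tspan8, Ndufa4l2, Rbpjl and Aoc3 by 5.46, 5.46, 5.25 and 5.18 on the log2 scale.

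Markers of macrophages, cells that take part in bone but are not osteoblasts, rose in the same libraries. In bulk RNA, fewer or more cells of a type and less or more RNA per cell cannot be told apart. A deposited CPM value was a whole multiple of 1 read for 99.957% of the 114821 positive values, within 0.02 reads. The 49 exceptions all lay in 9 genes, of which Ptprc, Csf1r, Adgre1, Itgam, Cd14 and Fcgr3 are macrophage markers and Acp5, Ctsk and Itgb3 osteoclast markers. How these values were made is not given in the sources used here, and they were left out of what follows. Of the other 19 macrophage markers 18 were tested and 17 were higher, with a median log2 change of 3.43, while the 6 left-out genes summed to 58.2 and 45.5 normalized CPM at day 0 and 50.5 and 49.0 at day 12. The 19 summed to 437 and 256 at day 0 and to 6750 and 3440 at day 12. Lysozyme 2 (Lyz2) alone was at 246 and 140 and then at 4050 and 1930, and the mannose receptor Mrc1 at 8.68 and 10.6 and then at 457 and 229 (log2 change 4.94). In both, day 12 replicate 1 was well above replicate 2. None of the 19 had 0 reads in all 4 libraries. The paper reports only very low levels of macrophage and osteoclast marker genes in this culture system, and its text does not name the genes. Lyz2 and Mrc1 at day 12 were far above such levels here.

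Lists of immune function were counted beside these markers. Complement genes had a median log2 change of 2.45, with 10 of 13 tested genes higher. Serping1, the C1 inhibitor, went from 4.74 and 5.65 normalized CPM to 185 and 181 (log2 change 4.89, standard error 0.20, adjusted p = 1.22e-05) and C3, the central component, from 2.76 and 3.18 to 117 and 93.8. For Serping1 the day 12 replicates were alike. In antigen presentation by MHC class I, 10 of 13 genes were higher, among them H2-K1 (from 111 and 57.9 to 386 and 524), H2-D1 (from 60.0 and 39.9 to 244 and 210) and B2m (from 436 and 322 to 811 and 948). Of 20 tested chemokines and cytokines 9 were higher. Cxcl12, which stromal cells of marrow make, rose from 63.5 and 56.5 to 1900 and 1810 (log2 change 4.93, standard error 0.26, adjusted p = 3.37e-05), and the inflammatory chemokine gene Ccl3, with 0 reads at day 0, was at least 8.81-fold higher. Without day 12 replicate 1 or 2 the higher genes were 6 or 5 in the class I list and 6 in either case among chemokines and cytokines. The part of macrophage RNA in the rises of these lists was not tested.

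Interferon stimulated genes (ISGs), the antiviral genes that interferons induce, numbered 64 in the list; 58 were tested, 52 were higher and none was lower. Of the 39 that passed on both days 34 were higher. Ifit1, which binds viral RNA, was at 3.55 and 8.48 normalized CPM at day 0 and at 55.1 and 111 at day 12 (log2 change 3.59, standard error 0.55, adjusted p = 0.00262). Ifit3 rose from 1.18 and 2.83 to 43.1 and 73.7 (log2 change 4.31, adjusted p = 0.000199). Both were higher in day 12 replicate 2 than in replicate 1, and so was the sum of the list (3130 and 4160). Cxcl10 went the other way, with 8.32 in replicate 1 and 2.51 in replicate 2. The part of macrophage RNA in the rise of ISGs was not tested here. In separate cultures without CD45+ cells, the paper measured Mx1, Ifit1, Ifit2 and Eif2ak2 by qPCR during differentiation. In the WT libraries Irf7, Ifit2, Cxcl10 and Eif2ak2 rose by 2.36, 1.95, 1.88 and 1.16 on the log2 scale. Ifnb1, the gene of interferon β, had 0 reads in all 4 libraries, and neither receptor chain was called (Ifnar1 0.14, Ifnar2 0.45). The 0 reads of Ifnb1 do not show absence. In its osteoblast cultures the paper measured Ifnb1 by qPCR and reports a low level of the protein by ELISA. Mx1, with 1 and 0 reads at day 0, was at 2.30 and 2.09 normalized CPM at day 12 and did not pass the filter. Without day 12 replicate 2, 25 ISGs were higher, and without day 12 replicate 1, 33.

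The promoters of Ifit1 and Ifit3 are shown because ISGs share the interferon stimulated response element (GAAA, any 2 bases, then GAAA), which appears in capitals, here on the other strand. The windows are the 250 bases before the RefSeq starts (GRCm38.p6), chr19:34640639-34640888 for Ifit1 and chr19:34583279-34583528 for Ifit3, both on the plus strand. Each had 2 matches, which began 104 and 85 bases before the start in Ifit1 and 156 and 122 bases before it in Ifit3:

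Ifit1: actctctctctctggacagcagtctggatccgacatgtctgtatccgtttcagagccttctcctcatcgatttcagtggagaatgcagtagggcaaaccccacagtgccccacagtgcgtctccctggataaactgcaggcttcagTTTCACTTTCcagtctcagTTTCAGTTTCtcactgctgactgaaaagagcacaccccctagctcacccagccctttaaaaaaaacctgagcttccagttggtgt

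Ifit3: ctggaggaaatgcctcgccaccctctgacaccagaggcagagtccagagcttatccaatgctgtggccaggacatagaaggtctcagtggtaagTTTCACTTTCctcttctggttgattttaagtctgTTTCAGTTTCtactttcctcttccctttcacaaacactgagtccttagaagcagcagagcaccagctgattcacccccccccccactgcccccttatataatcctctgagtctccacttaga

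Of the 39 higher ISGs with a promoter, 23 (59.0%) held the element on either strand, against 3.99% of all promoters and 3.65% of those of members. The share was 7.09% for genes called higher and 4.61% for genes called lower.

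Markers of other cell types were also summed. Adipocyte markers were higher for 7 of 9 tested genes, with sums of 172 and 210 normalized CPM at day 0 and 785 and 710 at day 12: lipoprotein lipase (Lpl) rose from 37.5 in both libraries to 278 and 297, and Cebpa, a factor of fat and myeloid cells, from 33.2 and 30.0 to 166 and 142, while Lep had 0 reads. Without either day 12 library 4 adipocyte markers were higher. Chondrocyte markers summed to 2150 and 3990 at day 0, above the macrophage markers, and to 1660 and 2060 at day 12. They went both ways, since Col2a1 fell from 1820 and 3520 to 787 and 1020 (log2 change -1.50, adjusted p = 0.0267) and Comp rose from 20.9 and 24.0 to 331 and 388 (3.94). Erythroid markers had 0 reads in all 4 libraries, and 7 of 8 lymphocyte markers did too, the exception being Cd4. Endothelial markers summed to 11.4 and 7.77 at day 0 and 16.9 and 20.5 at day 12. Neutrophil and mast cell, muscle and keratinocyte markers each summed to under 10 in every WT library, neural markers to between 41.9 and 78.9, and osteoclast markers with whole reads to 48.1 and 63.6 and then 79.5 and 78.7. The osteoblastic markers, by which the label was checked, summed to 22300 and 41000 at day 0. At day 12 they summed to 78400 and 95600, and 4 of 8 were higher. Nearly all of each sum came from Col1a1 (13200 and 27300, then 44100 and 55700) and Col1a2 (8910 and 13500, then 32600 and 38800). At day 0 Alpl, Ibsp and Bglap were low (16.2 and 20.8, 10.3 and 0.707, and 0 in both libraries). The sums thus mainly reflect type I collagen and are a weak check of the label.

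**Figure D4:**
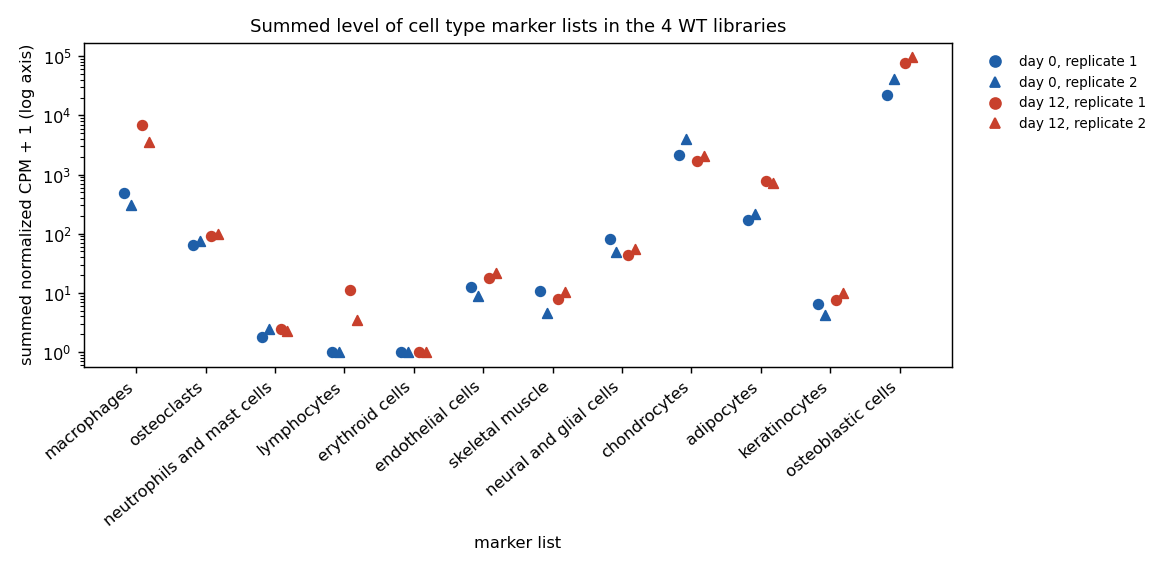
Summed normalized CPM + 1 on a log axis of each marker list in the 4 WT libraries. Osteoblastic markers have the highest sums in every library, nearly all from Col1a1 and Col1a2. Macrophage markers rise from 495 and 301 to 6800 and 3490 with all 25 genes of the list in the sum.

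All 75 tested cytoplasmic ribosomal protein genes had a negative log2 change, but its size depended on day 0 replicate 1. Their median log2 change was -0.93 and 2 of 75 were called lower; the median was -0.23 with 3 lower without day 0 replicate 1, and -1.69 with 75 lower without day 0 replicate 2. Between the day 0 replicates their median difference was 1.49, with replicate 1 higher. Oxidative phosphorylation genes behaved likewise, with a median of -0.46 and none of 58 called, and a median of 0.17 without day 0 replicate 1. In contrast, 52 of them were lower without day 0 replicate 2. Rplp0, for one, was at 2330 and 1040 normalized CPM at day 0 and at 720 and 689 at day 12 (adjusted p = 0.0473).

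The Def6-/- libraries, which share no sample with the WT contrast but share its fit, gave the same direction for most of these genes. In them 1436 of the WT members were higher (11.9%) and 581 lower (4.81%) at day 12. Of the genes called in WT, 1213 of the 1549 higher ones were also called higher in Def6-/- cells, which is 78.3% of the WT and 84.5% of the Def6-/- calls. For lower genes these were 413, 59.8% and 71.1%, and no gene was called in opposite directions. No gene passed the test of the difference between the 2 changes (limma interaction, 0% of members, smallest adjusted p = 1; 119 genes had an unadjusted p under 0.05; edgeR and DESeq2 also gave 0), so no change is described here as particular to WT cells. When day 0 replicate 2 of WT was left out, 1281 genes passed it. Ibsp rose by 9.79 and Alpl by 4.45 in Def6-/- cells, beside 7.69 and 3.65 in WT cells, and Msx2 fell by 2.93, beside 2.49. The ribosomal protein median was -0.38, beside -0.93 in WT.

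**Figure D5:**
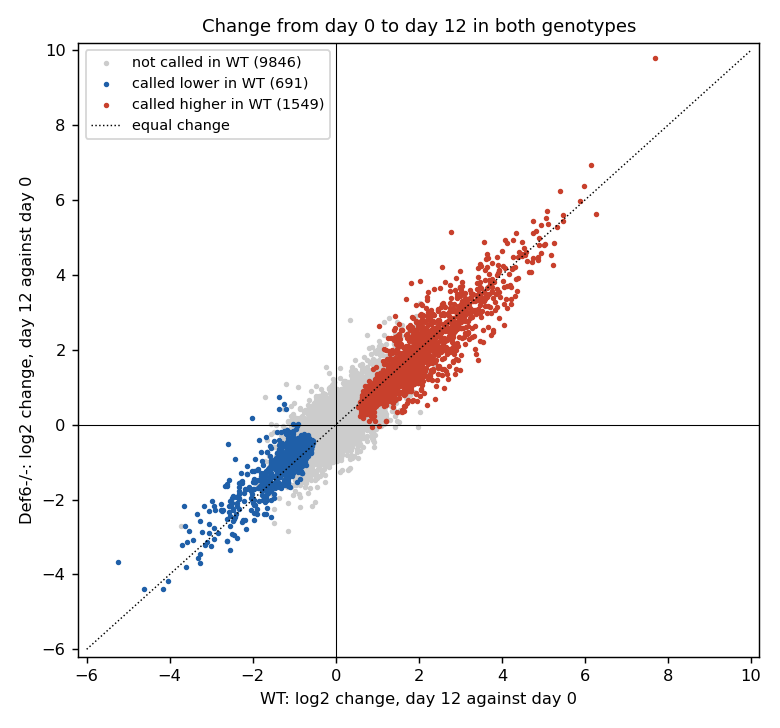
Log2 change from day 0 to day 12 of each of the 12086 members in WT libraries (x axis) and in Def6-/- libraries (y axis), colored by the call in WT; the dotted line marks equal change. Of the 1549 higher genes 1547 have a positive change in Def6-/- cells too, and of the 691 lower genes 684 a negative one.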

How the data were processed

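RNA from 8 libraries (WT and Def6-/-, day 0 and day 12, 2 replicates each) was sequenced by the study as poly-A RNA. According to the submitters' notes and methods, the authors used fastp, HISAT2 (mm10) and HTSeq, and the deposited CPM values were made with edgeR; versions, annotation and strand setting are not given in the sources used here. The CPM total also counts reads that were assigned to no gene. Whole reads were recovered from CPM; the files hold no other column. In R 4.3.3, CPM was rescaled to reads on genes with TMM factors over the 12348 genes with a mean CPM of at least 1 in any group. limma 3.58.1 (lmFit, eBayes with trend) was run on log2(CPM + 1) in a fit of 4 group means, with Benjamini-Hochberg adjustment over the genes fitted. The scripts were tested on simulated data. edgeR 4.0.16 (quasi-likelihood) called 1518 higher and 776 lower genes on recovered reads, and DESeq2 1.42.0 called 1335 and 753. Alternatives changed libraries, scaling, pseudocount, filter, test and block.

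Members, gene lists and motifs were chosen with earlier results of these data known. Named are the 12 largest rises and falls among called genes at 10 normalized CPM or more without overlap, genes the study names, and from each list the 3 called genes of smallest p in each direction and the 3 most abundant. Any interval or floor (3 reads) covers counting error only. Positions are from GENCODE M21 and promoters from RefSeq GRCm38.p6. Some genes that the naming rule selects are not reported here.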

Additional observations from a re-analysis of the deposited data

How the results depend on the processing

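No called gene changed direction under any alternative run. With only the 4 libraries of each genotype in the fit, 888 genes were higher and 203 lower in WT cells, and 192 lower genes were shared with Def6-/- cells. Leaving out 1 library gave 703 to 3002 higher and 161 to 2652 lower genes in WT cells, 664 to 1742 shared higher and 116 to 1160 shared lower genes, and 0 to 1281 genes that differed between genotypes. The lowest WT counts came without a day 12 library and the highest without WT day 0 replicate 2, and the cause was not tested. A group left with 1 library was assumed to vary like the others. Of the 158 tested genes named in the text, 132 were called, and 45 of these lost the call under at least 1 alternative.

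Replicate numbers are shared between groups, but the correlation of same-numbered deviations was 0.0926 in WT cells, and no label ties a number to an animal, so they were not taken as pairs. The Y-linked sums, which follow the replicate number across days (56.4 and 47.9 against 0 and 0.419), are a hint from the data that the numbers may mark a shared source. Xist was read in every WT library, so these sums do not identify single animals. With the replicate block 1675 genes were higher and 854 lower, and with the block and only the 4 WT libraries 1428 and 513, against 888 and 203 without it.

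Some genes that were not called changed sign. With 1 library left out at a time, their log2 changes ranged from -1.26 to 0.87 (Cd14), -0.07 to 0.47 (Def6), -0.01 to 0.45 (Fcgr3), -1.35 to 0.08 (Fn1), -0.44 to 0.22 (Itgam), -0.92 to 0 (Jun), -1.21 to 1.26 (Mki67), -0.08 to 0.96 (Runx2) and -0.15 to 0.70 (Sp7), and for Top2a the highest was 0.87, without WT day 0 replicate 2. For Mki67 the change was -0.01 with the deposited CPM and with TMM over every gene, -0.04 without TMM, and -0.46 with edgeR and DESeq2. For Cd14 these tools gave 0.04 and 0.09.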

Other observations

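Further lists of signalling and metabolic genes were counted in WT cells. Over all members 12.8% were higher at day 12 and 5.72% were lower. In the IGF pathway 6 of 15 genes were higher and 1 was lower. Igfbp4, a carrier that holds back IGF, rose from 1660 and 1720 normalized CPM to 4570 and 5380 (log2 change 1.56, adjusted p = 0.00126, limma), Igfbp3 from 21.3 and 23.7 to 260 and 183, and the protease Htra1 from 168 and 143 to 628 and 616, while the receptor Igf1r fell from 193 and 289 to 74.9 and 83.3 (log2 change -1.57). Of 19 tested FGF genes 4 were higher, among them the receptor Fgfr3 (from 22.1 and 27.9 to 52.0 and 49.4), and the ligand Fgf9 fell (-2.61). In the Hedgehog list 3 of 11 were higher: Hhip, which binds the ligand, reached 18.4 and 19.3 from 0 and 2 reads, and Ihh, with 0 reads at day 0, was at least 3.41-fold higher. Of 7 Notch genes the target Hes1 was lower, from 119 and 44.2 to 21.8 and 27.2 (adjusted p = 0.0491). Without day 0 replicate 2, 8 FGF, 9 Hedgehog and 4 Notch genes were higher, and without either day 12 library 1 FGF gene was.

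Among hormone receptors, 3 of 11 were higher and 1 lower. The parathyroid hormone receptor Pth1r rose from 43.4 and 30.4 normalized CPM to 142 and 150 (log2 change 1.97, adjusted p = 0.00086), the thyroid hormone receptor Thra from 41.8 and 64.7 to 182 and 184, and the leptin receptor Lepr fell from 26.0 and 27.6 to 13.8 and 11.7. Hormone receptors and IGF genes each had 4 lower genes without day 0 replicate 1, and without day 0 replicate 2, 5 hormone receptors were higher. Of 19 antioxidant genes 5 were higher and 2 lower: the secreted peroxidase Gpx3 rose from 60.4 and 33.9 to 1050 and 1150 (4.57, adjusted p = 4.06e-05), and Nqo1, a quinone reductase, fell from 160 and 125 to 18.7 and 16.8 (-2.93, adjusted p = 0.000134). With day 0 replicate 2 left out, 7 antioxidant genes were lower and the median log2 change turned from 0.17 to -0.20, and without day 12 replicate 1, 3 were higher and the median was -0.03. In glycolysis 5 of 20 were higher, with Pdk1 from 18.5 and 14.5 to 64.6 and 50.3. The list as a whole did not rise, since its genes summed to 4740 and 3430 at day 0 and to 3650 and 2970 at day 12. In cholesterol synthesis and uptake 2 of 23 were lower, not far from the 5.72% of all members (median log2 change -0.07). Without day 12 replicate 1 no glycolysis gene was higher, and without either day 12 library no cholesterol gene was lower. Adhesion genes were split, 5 higher and 5 lower of 21, with 2 lower without either day 12 library and 8 lower without day 0 replicate 1, where the median turned from 0.12 to -0.16: the cadherin Cdh11 rose from 752 and 945 to 1910 in both libraries, and the hyaluronan receptor Cd44 fell from 573 and 442 to 163 and 178. Of 4 MHC class II genes only H2-DMb1 was called higher (2.15). Tubb3, a neural tubulin, fell from 59.6 and 41.0 to 8.32 and 7.54.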
